A study of Mus musculus with 32 samples.

Results

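Serpins were described here as a family, in the liver of mice kept on 2 diets with or without the food additive E171. The members were all non-control array probes whose gene name begins with Serpin, a clade letter from a to i and a number, which gave 87 probes for 64 genes among 56605 non-control probes. Serpins are folded around an exposed loop that most of them offer to a protease as bait. After the cut, an inhibitory serpin changes shape and traps the protease in a dead complex, which receptors of the liver take up. Hepatocytes secrete most of the serpins of blood plasma, clade B serpins stay mainly inside cells, and a few members carry hormones or act as chaperones instead of inhibiting proteases.

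Each of the 32 mice was an F1 male of the C57BL/6J strain with no transgene named in the labels, and gave 1 total RNA extract of whole liver for 1 one-colour Cy3 array. Normal diet controls received pellets without E171, and normal diet E171 mice received pellets with E171, food-grade titanium dioxide, dosed towards 10 mg per day for each kg of body weight. Western diet controls and Western diet E171 mice had the same pellets without or with E171 and went over to the Western diet at 5 weeks of age, for 16 weeks. F0 mothers had started on their pellets at 8 weeks of age, 40 days before mating, and the pups kept the condition of the mother until sampling at 21 weeks. Each of the 4 groups held 8 mice. The group labels call the second diet Western and the protocol text calls it high in fat, and its composition is not given in the sources used here. Litters are not given either, so the 8 mice of a group were taken as independent, which littermates need not be.

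All signals below are log2 of the background-corrected array signal minus the 75th percentile of the same array, so 0 is the brightness below which 75% of probes lie and 1 unit is a 2-fold step. They compare groups for 1 probe, not 1 gene with another. Differences are given on this log2 scale with the standard error (± SE), group means with the standard deviation (± SD) of 8 mice. The tests were two-sided, from limma fitted to 23656 genes with Benjamini-Hochberg adjustment, and a gene was called at an adjusted p under 0.05. Arrays had 32163 to 37261 probes well above background and 0 saturated spots, arrays of a group correlated at 0.981 to 0.996, and each of 4 slides held 2 mice of every group. In whole liver RNA, fewer cells of a type and less RNA per cell cannot be told apart.

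A gene was tested if a probe was well above background, by the flag of the scanner software, on 6 or more of the 8 arrays in any group. This held for 43 of the 64 genes, with 57 probes. Clade A, the secreted antitrypsin-like clade, had 24 of 26 genes tested, and clade B had 10 of 27. The single members of clades C, D, G and H (Serpinc1, Serpind1, Serping1 and Serpinh1) were all tested, as were 2 of 3 in clade E, 2 of 2 in clade F and 1 of 2 in clade I. Of the tested genes 38 were well above background on 8 of 8 arrays in all groups. The other 5 passed on some arrays only and are marked where they are described, since a gene that passes through its brighter group alone had to differ.

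Serpin genes lie in runs of copies, and copies limit what a 60-base probe can tell apart. On chromosome 12 (mm9, the build of the probe positions) 25 of the 64 genes had probes between positions 104853280 and 105651977, chromosome 13 held 15 genes and chromosome 1 held 14. Among 1580 pairs of kept probes of different serpin genes, 6 pairs shared a run of at least 18 bases. Whether a probe lies in an exon, intron or untranslated region was not analysed here. The stretches of 30 bases below are shown because they set the resolution for the results on Serpina1 and Serpina3, with the bases that differ within a set in capitals.

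The first set is the probe that stood for each of the alpha-1 antitrypsin copies Serpina1a (chr12:105091819-105091878), Serpina1c (chr12:105133165-105133224) and Serpina1e (chr12:105185172-105185231), positions of the whole probe in mm9:
Serpina1a: taaAaTgtcatccttccttctgaattgggt
Serpina1c: taaGaTgtcatccttccttctgaattgggt
Serpina1e: taaGaAgtcatccttccttctgaattgggt
Within this window 2 of the 30 positions differed. Over the whole alignment the Serpina1a and Serpina1c probes differed at 1 of 51 bases, so the split between these copies is uncertain. The Serpina1e probe differed at 10 of 59 bases from Serpina1c and at 11 of 50 from Serpina1a, in an alignment that allowed no gaps. It shared an unbroken run of 29 bases with each of them, so its split from them is uncertain too.

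The second set holds another Serpina1a probe (chr12:105091979-105092038) and the Serpina1b probe (chr12:104966520-104966579), which differed at 5 of 30 positions:
Serpina1a, second probe: tACaaATGgttcctatgtctatgcccccta
Serpina1b: tTGaaGCCgttcctatgtctatgcccccta

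The third set pairs the Serpina3h probe (chr12:105491733-105491792) with the dimmer of the Serpina3i probes (chr12:105506705-105506764), alike but for 6 of 30 positions:
Serpina3h: cacaggGgtcaaaTtAaTtctaTgttgtgA
Serpina3i, dimmer probe: cacaggAgtcaaaGtTaAtctaCgttgtgG
These 2 probes moved in opposite directions between diets, as given with the Serpina3 genes. The dimmer Serpina3i probe passed the filter through the brighter Western diet groups alone, so its rise was favoured in advance.

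Between the diets, most serpins measured here were lower on the Western diet and a smaller number were higher. In controls 24 of 43 genes fell and 10 rose, and in E171 mice 24 fell and 9 rose. Each gene was counted by its brightest kept probe, also where copies have like probes or the probes of a gene disagree. The rises include Serpini1, which passed the filter through its brighter group alone. The background in controls was 28.7% of all genes lower, 18.5% higher and 47.3% called in either direction, against 55.8% lower, 23.3% higher and 79.1% called for the serpins. In E171 mice the background was 31.0% lower, 22.2% higher and 53.2% called, against 55.8%, 20.9% and 76.7%. The median difference of the 43 genes was -0.43 in both comparisons, and the median of all genes was -0.10. The share of serpins that rose was thus near that of all genes, and the share that fell was above it.

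The lower calls depended more on scaling than the higher ones. The mean 75th percentile intensity, which was subtracted on the log2 scale, was itself higher on the Western diet. It was 255.0 in normal diet controls and 299.9 in Western diet controls, and 248.2 and 279.6 in the E171 mice. Its part in the falls was not tested. With quantile normalization 19 fell and 10 rose in controls, where 24.9% of all genes were lower and 20.8% higher. In E171 mice 21 fell and 8 rose, against 29.6% lower and 24.1% higher, so the share of serpins that rose (18.6%) was below that of all genes. In the deposited value table the counts were 18 and 11 in controls, against 18.5% lower and 22.2% higher, and 20 and 8 in E171 mice, against 24.0% and 25.1%. The median of the serpins in controls was -0.24 with quantile normalization and -0.25 in the deposited table, with medians of all genes of -0.07 and -0.02.

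The comparisons in controls and in E171 mice used different mice. Both called 32 of the 43 genes, each in the same direction, and 42 of 43 had the same sign. Serpina3f and Serpina1a were called in controls alone, Serpinb9f in E171 mice alone, and 8 genes in neither. Groups of 8 mice that did not overlap were seen for 6 genes in controls, against 9.96% of all genes, and for 15 genes in E171 mice, against 18.0%. Of the called genes, 32 of 34 in controls and 30 of 33 in E171 mice had their direction on all 4 slides. The plot of diet differences by role gives 42 of them.

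**Figure D1:**
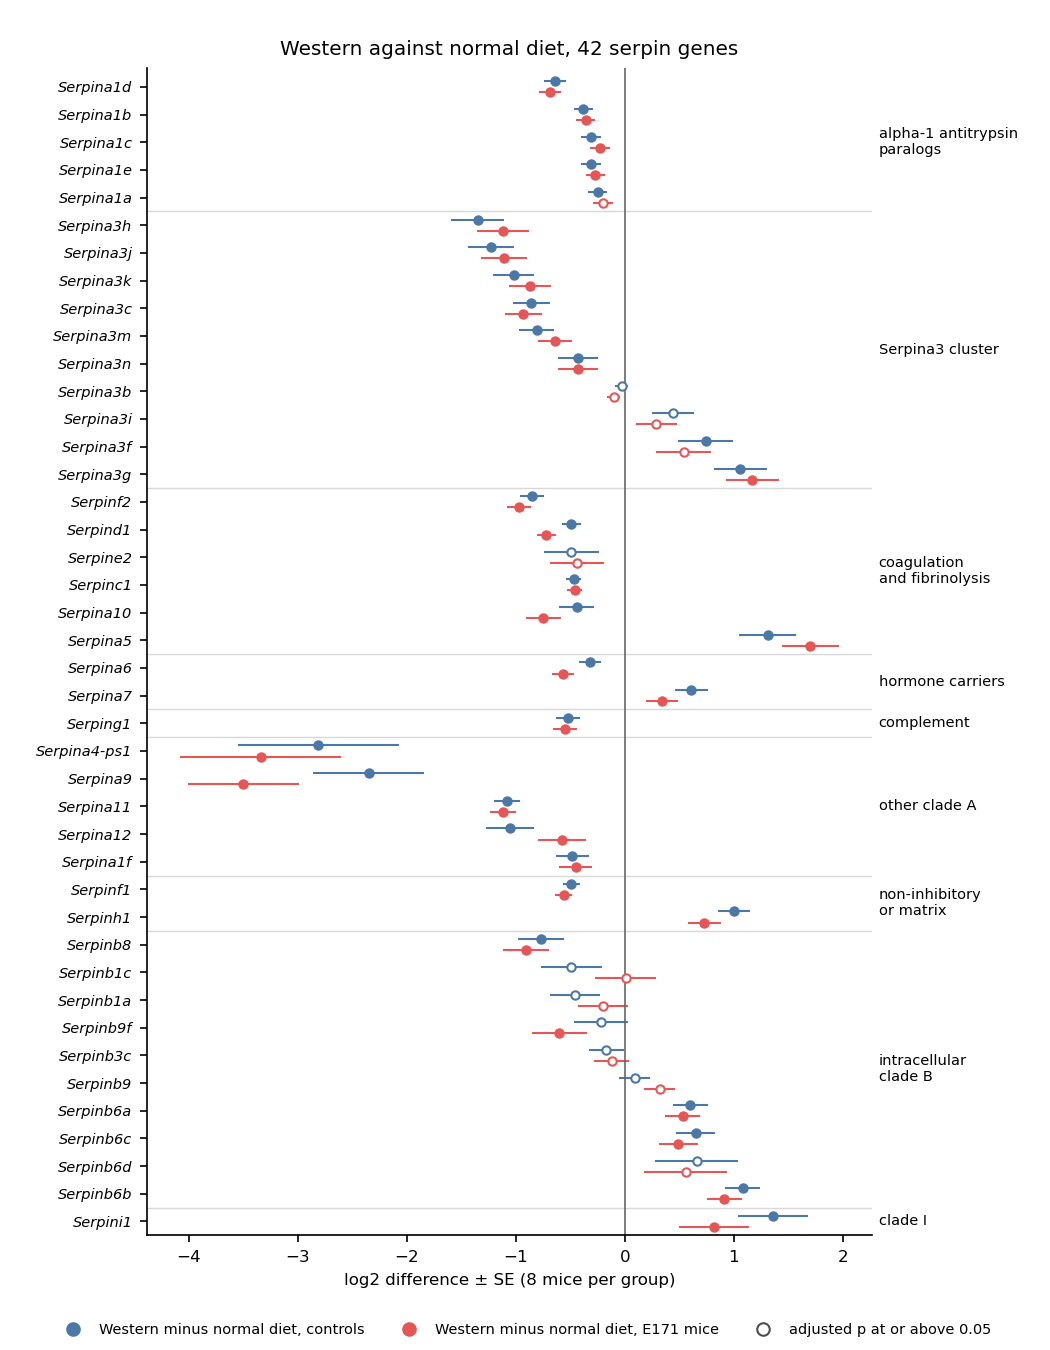
Log2 difference between Western and normal diet (x axis, ± SE, 8 mice per group) for 42 of the tested serpin genes, in controls (blue) and in E171 mice (red), grouped by role; open points have an adjusted p at or above 0.05. The lowest values are among the other clade A genes, with Serpina4-ps1 at -2.81 in controls and Serpina9 at -3.5 in E171 mice.

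The alpha-1 antitrypsin copies encode the main plasma inhibitor of neutrophil elastase. In mice the gene is repeated, and 5 copies were tested. All 5 were called lower in controls and 4 in E171 mice, but by small steps. For Serpina1a, Serpina1c and Serpina1e the values came near 0 with quantile normalization and in the deposited table. After normexp background correction these 3 stayed lower and called in controls, at -0.19, -0.26 and -0.26. Quantile normalization gives all arrays the same set of values, and the main scaling subtracts a 75th percentile that differed between the diets, as given above. The part of either in these values was not tested. Among the probes that stood for the 5 copies, that of Serpina1d fell most, by 0.64 in controls and by 0.69 in E171 mice. The second Serpina1a probe fell by more, as given below. Serpina1d ran from 9.94 to 10.28 (median 10.04, mean 10.07 ± 0.12) in normal diet controls and from 9.94 to 10.26 (median 10.11, mean 10.10 ± 0.10) in normal diet E171 mice. Serpina1d on the Western diet ran from 9.11 to 9.91 (median 9.42, mean 9.43 ± 0.27) in controls and from 8.98 to 9.70 (median 9.42, mean 9.40 ± 0.24) in E171 mice. Every Western diet mouse thus lay below every normal diet mouse. The difference was -0.64 ± 0.10 in controls (adjusted p = 4e-06) and -0.69 ± 0.10 in E171 mice (adjusted p = 9.94e-07).

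Serpina1b ran from 10.65 to 10.97 (median 10.82, mean 10.81 ± 0.14) in normal diet controls and from 10.70 to 11.14 (median 10.84, mean 10.85 ± 0.14) in normal diet E171 mice. Serpina1b on the Western diet ran from 10.13 to 10.73 (median 10.41, mean 10.42 ± 0.20) in controls and from 10.09 to 10.82 (median 10.49, mean 10.49 ± 0.23) in E171 mice. The groups overlapped slightly, and the difference was -0.38 ± 0.09 in controls (adjusted p = 0.00088) and -0.36 ± 0.09 in E171 mice (adjusted p = 0.00134). It remained called at -0.09 with quantile normalization and at -0.12 in the deposited table, both in controls.

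Serpina1a ran from 10.52 to 10.86 (median 10.59, mean 10.65 ± 0.14) in normal diet controls and from 10.50 to 11.07 (median 10.64, mean 10.69 ± 0.17) in normal diet E171 mice. Serpina1a on the Western diet ran from 10.14 to 10.69 (median 10.41, mean 10.40 ± 0.18) in controls and from 10.19 to 10.77 (median 10.43, mean 10.49 ± 0.21) in E171 mice. For Serpina1a the groups of each comparison overlapped, with the Western diet medians lower. Serpina1c ran from 10.51 to 10.94 (median 10.66, mean 10.71 ± 0.14) in normal diet controls and from 10.54 to 11.15 (median 10.68, mean 10.73 ± 0.19) in normal diet E171 mice. Serpina1c on the Western diet ran from 10.12 to 10.75 (median 10.36, mean 10.40 ± 0.19) in controls and from 10.20 to 10.78 (median 10.48, mean 10.50 ± 0.22) in E171 mice. Serpina1c overlapped in the same way. Serpina1e ran from 10.39 to 10.75 (median 10.51, mean 10.53 ± 0.13) in normal diet controls and from 10.38 to 10.93 (median 10.57, mean 10.58 ± 0.17) in normal diet E171 mice. Serpina1e on the Western diet ran from 9.98 to 10.54 (median 10.22, mean 10.22 ± 0.18) in controls and from 9.97 to 10.64 (median 10.25, mean 10.30 ± 0.23) in E171 mice. Serpina1e overlapped too, with the Western diet means lower. The Serpina1a difference was -0.25 ± 0.09 in controls (adjusted p = 0.0231) and -0.20 ± 0.09 in E171 mice (adjusted p = 0.0629). Serpina1c differed by -0.31 ± 0.09 in controls (adjusted p = 0.00826) and -0.23 ± 0.09 in E171 mice (adjusted p = 0.0405), and without normal diet E171 replicate 6 its E171 value was -0.17 (adjusted p = 0.113). Serpina1e differed by -0.31 ± 0.09 in controls (adjusted p = 0.00605) and -0.27 ± 0.09 in E171 mice (adjusted p = 0.0123). Under quantile normalization the controls gave 0.06 for Serpina1a, 0.01 for Serpina1c and 0.02 for Serpina1e, and the deposited table gave 0.01, 0.01 and -0.02, none of them called. The second Serpina1a probe, shown above, differed by -0.74 ± 0.11 in controls and by -0.76 ± 0.11 in E171 mice, with no overlap between diets in either.

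**Figure D2:**
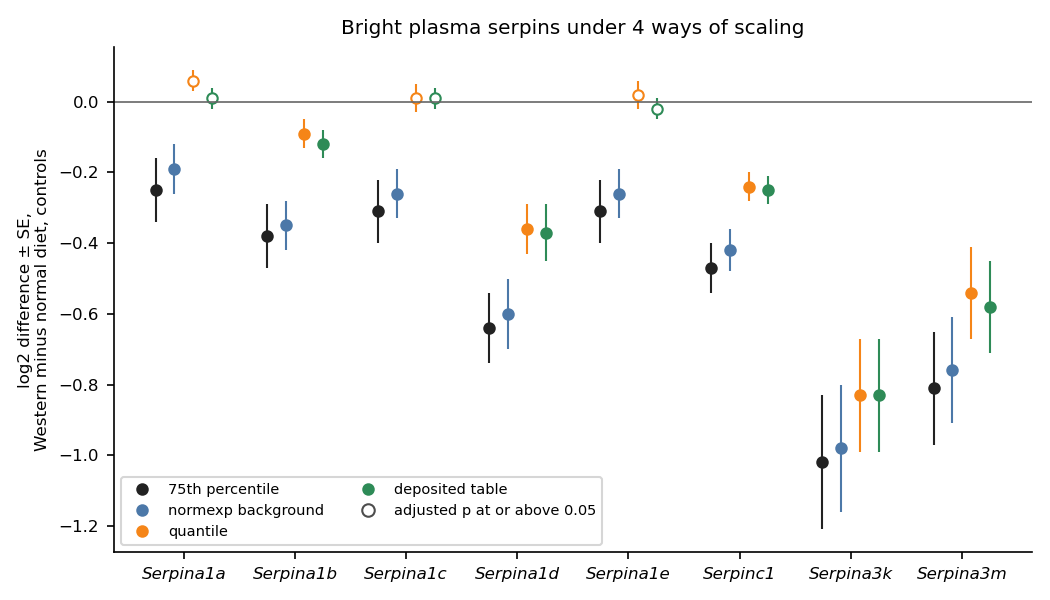
Log2 difference between Western and normal diet in controls (y axis, ± SE) for 8 bright plasma serpins under the 75th percentile scaling, normexp background correction, quantile normalization and the deposited value table; open points have an adjusted p at or above 0.05. Serpina1a, Serpina1c and Serpina1e come to within 0.06 of 0 under the last 2, while Serpina1d, Serpina3k and Serpina3m stay below it in all 4.

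The Serpina3 genes are mouse copies of the antichymotrypsin gene, an inhibitor of chymotrypsin-like proteases and in part an acute phase gene. Of 10 tested copies, 6 fell in both comparisons (Serpina3c, Serpina3h, Serpina3j, Serpina3k, Serpina3m and Serpina3n). Serpina3g rose in both, Serpina3f in controls alone, and Serpina3b and Serpina3i were not called in either. By the probes that stood for them, neighbouring copies therefore went in opposite directions. Serpina3g differed by 1.06 ± 0.24 in controls (adjusted p = 0.000506) and 1.17 ± 0.24 in E171 mice (adjusted p = 0.000135). Serpina3h, at the next probe along the chromosome, differed by -1.35 ± 0.24 in controls (adjusted p = 2.93e-05) and -1.12 ± 0.24 in E171 mice (adjusted p = 0.000235). The Serpina3h fall rests on its only probe. A kept probe named Serpina3f lies beside it and rose in both comparisons, as given below, so probes at this place disagree.

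Serpina3g ran from 1.38 to 2.87 (median 1.87, mean 2.02 ± 0.57) in normal diet controls and from 1.0 to 2.34 (median 1.81, mean 1.77 ± 0.47) in normal diet E171 mice. Serpina3g on the Western diet ran from 2.79 to 4.07 (median 3.00, mean 3.08 ± 0.41) in controls and from 2.43 to 4.02 (median 2.87, mean 2.94 ± 0.50) in E171 mice. The E171 groups did not overlap, and the controls overlapped slightly. Over the 10 alternative settings its difference in E171 mice stayed between 1.14 and 1.25. Serpina3h ran from 3.26 to 3.95 (median 3.57, mean 3.60 ± 0.27) in normal diet controls and from 3.21 to 4.0 (median 3.45, mean 3.48 ± 0.26) in normal diet E171 mice. Serpina3h on the Western diet ran from 1.21 to 3.34 (median 2.18, mean 2.25 ± 0.73) in controls and from 1.41 to 3.19 (median 2.31, mean 2.36 ± 0.55) in E171 mice. Here the E171 groups did not overlap either, with Western diet mice lower. Serpina3j ran from 4.97 to 6.01 (median 5.58, mean 5.58 ± 0.36) in normal diet controls and from 5.05 to 5.79 (median 5.5, mean 5.47 ± 0.26) in normal diet E171 mice. Serpina3j on the Western diet ran from 3.64 to 5.12 (median 4.39, mean 4.35 ± 0.54) in controls and from 3.55 to 5.24 (median 4.37, mean 4.36 ± 0.53) in E171 mice. Serpina3j overlapped at single mice and differed by -1.23 ± 0.21 in controls (adjusted p = 2.06e-05) and -1.11 ± 0.21 in E171 mice (adjusted p = 6.76e-05).

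Serpina3k, Serpina3m and Serpina3n are the best known secreted copies. Serpina3k ran from 9.0 to 9.49 (median 9.15, mean 9.19 ± 0.18) in normal diet controls and from 8.82 to 9.42 (median 9.06, mean 9.08 ± 0.19) in normal diet E171 mice. Serpina3k on the Western diet ran from 7.37 to 8.98 (median 8.14, mean 8.17 ± 0.59) in controls and from 7.49 to 8.83 (median 8.17, mean 8.21 ± 0.44) in E171 mice. In controls the diets did not overlap, and the spread between mice was wider on the Western diet. Serpina3k differed by -1.02 ± 0.19 in controls (adjusted p = 5.82e-05) and -0.87 ± 0.19 in E171 mice (adjusted p = 0.0003). Serpina3m ran from 10.10 to 10.49 (median 10.28, mean 10.27 ± 0.12) in normal diet controls and from 10.03 to 10.45 (median 10.20, mean 10.22 ± 0.17) in normal diet E171 mice. Serpina3m on the Western diet ran from 8.87 to 10.20 (median 9.39, mean 9.46 ± 0.49) in controls and from 8.91 to 10.05 (median 9.45, mean 9.57 ± 0.39) in E171 mice. Again the Western diet mice lay lower with a wider spread. Serpina3m differed by -0.81 ± 0.16 in controls (adjusted p = 0.000129) and -0.64 ± 0.16 in E171 mice (adjusted p = 0.00123). Serpina3n ran from 3.16 to 4.55 (median 3.60, mean 3.71 ± 0.42) in normal diet controls and from 3.21 to 4.2 (median 3.47, mean 3.52 ± 0.30) in normal diet E171 mice. Serpina3n on the Western diet ran from 2.93 to 3.46 (median 3.36, mean 3.28 ± 0.18) in controls and from 2.30 to 3.52 (median 3.37, mean 3.08 ± 0.51) in E171 mice. Serpina3n, an inhibitor of granzyme B in the mouse, overlapped widely between diets and differed by -0.43 ± 0.18 in controls (adjusted p = 0.0484) and -0.43 ± 0.18 in E171 mice (adjusted p = 0.0435). This call was lost under 6 of 10 settings in each comparison. Without Western diet E171 replicate 8 the E171 value was -0.32 (adjusted p = 0.115), and without normal diet E171 replicate 6 the adjusted p was 0.0517 in controls and 0.0543 in E171 mice. Serpina3c differed by -0.86 ± 0.17 in controls (adjusted p = 0.000126) and -0.93 ± 0.17 in E171 mice (adjusted p = 3.65e-05).

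Probes of 1 gene did not always tell the same size of change. The Serpina3i probe that stood for the gene differed by 0.44 ± 0.19 in controls (adjusted p = 0.0513) and 0.29 ± 0.19 in E171 mice (adjusted p = 0.188), which was not called. In controls it was called with the slide as a block (adjusted p = 0.0355), in the deposited table (0.31, adjusted p = 0.0338), with the stricter filter (adjusted p = 0.0494) and without Western diet E171 replicate 8 (adjusted p = 0.0476). Its dimmer probe, shown above beside Serpina3h, differed by 1.51 ± 0.30 in controls and by 1.85 ± 0.30 in E171 mice, called in both, although it was well above background on 4 and 2 of 8 arrays in the normal diet groups and on 8 and 8 in the Western diet groups. Serpina3f differed by 0.74 ± 0.25 in controls (adjusted p = 0.0149) and 0.54 ± 0.25 in E171 mice (adjusted p = 0.0674). A second probe with that name, at chr12:105492556-105492615, lies beside the Serpina3h probe instead of the other Serpina3f probe (chr12:105458989-105459048) and differed by 0.94 ± 0.21 and 0.77 ± 0.21, called in both.

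Promoter stretches of 5 Serpina3 copies are shown because neighbouring copies differ at an aligned site. Capitals mark the 9 bases aligned with TTCNNNGAA, the palindrome to which STAT factors bind (RefSeq promoter table, GRCm38.p6, with the 250 bases before each annotated start searched): chr12:104214407-104214447, chr12:104236098-104236138, chr12:104263004-104263044 and chr12:104406569-104406609 on the plus strand and chr12:104153968-104154008 on the minus strand:
Serpina3f: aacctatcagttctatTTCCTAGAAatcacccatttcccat
Serpina3g: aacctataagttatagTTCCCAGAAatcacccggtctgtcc
Serpina3i: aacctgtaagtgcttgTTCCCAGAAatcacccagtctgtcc
Serpina3c: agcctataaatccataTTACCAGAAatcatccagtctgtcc
Serpina3n: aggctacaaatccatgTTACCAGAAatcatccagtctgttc
The 9 bases fit TTCNNNGAA in Serpina3f, Serpina3g and Serpina3i, and not in Serpina3c and Serpina3n. Serpina3g was called higher in both comparisons, Serpina3f in controls alone and Serpina3i in neither, while Serpina3c and Serpina3n fell in both. TTCNNNGAA, which reads the same on both strands, was in 7.02% of the 32851 promoters of the table. It was in 6 of the 33 tested serpin genes with an entry, where a gene counted if any of its promoters matched. These shares have unlike units and were not compared. The motif was chosen after the sequences were seen, so Serpina3f, Serpina3g and Serpina3i are not independent of that choice. The other 3 were Serpina11 and Serpina1f, which fell, and Serpinb6a, which rose. Serpina3h, Serpina3k and Serpina3m had no entry under their symbols. Serpina3b, called in neither comparison, and Serpina3j, which fell in both, are not shown, and neither was among the 6 genes with a match. The shown copies are thus a part of the cluster, and a link between site and direction was not tested.

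**Figure D3:**
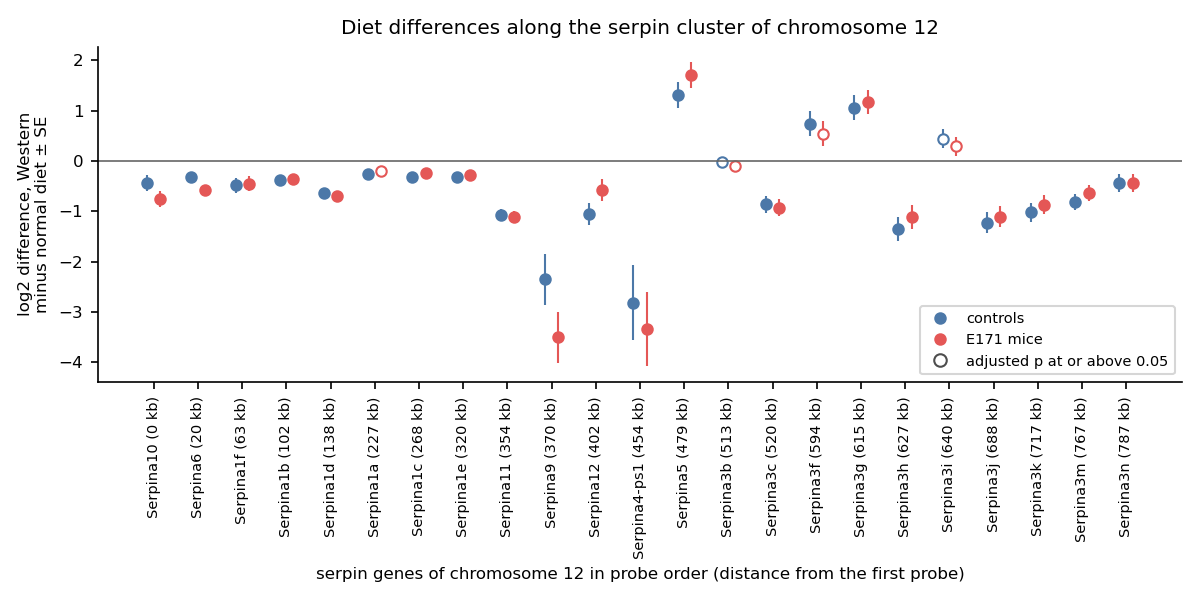
Log2 difference between Western and normal diet (y axis, ± SE) of the 23 tested serpin genes of chromosome 12 in the order of their probes (x axis, with the distance from the first probe in kb), in controls (blue) and E171 mice (red); open points have an adjusted p at or above 0.05. The genes from Serpina10 to Serpina4-ps1 all lie below 0, while those from Serpina5 to Serpina3i lie on both sides of 0 and the last 4, from Serpina3j to Serpina3n, lie below it.

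Along chromosome 12, 18 of 23 tested serpins fell and 3 rose in controls, and 17 fell and 2 rose in E171 mice. The probes span 787.0 kb. Serpina5, Serpina3f and Serpina3g were the genes that rose there in controls. On chromosome 13, with clade B genes only, 3 of 8 rose and 0 fell in controls, and 3 rose and 1 fell in E171 mice. Of all genes 28.7% fell and 18.5% rose in controls, and 31.0% fell and 22.2% rose in E171 mice. The counts on chromosome 13 are small, and the rises there include Serpinb6a and Serpinb6c, whose probes share a run of 26 bases.

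Serpins of coagulation and fibrinolysis gave several of the firmest falls, and a rise of Serpina5, the protein C inhibitor. Serpina5 ran from -5.56 to -3.32 (median -4.42, mean -4.41 ± 0.71) in normal diet controls and from -6.45 to -4.28 (median -5.25, mean -5.26 ± 0.70) in normal diet E171 mice. Serpina5 on the Western diet ran from -3.71 to -2.65 (median -3.07, mean -3.10 ± 0.33) in controls and from -4.0 to -3.09 (median -3.67, mean -3.56 ± 0.32) in E171 mice. The E171 groups did not overlap and the control groups did. Serpina5 differed by 1.31 ± 0.26 in controls (adjusted p = 0.00016) and 1.70 ± 0.26 in E171 mice (adjusted p = 3.65e-06), at a dim probe that was well above background on 7 and 3 of 8 arrays in the normal diet controls and E171 mice and on 8 and 8 on the Western diet. Its size depended on the background correction, with 0.25 in both comparisons after normexp, and 0.72 and 0.73 in the deposited table, all called.

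Antithrombin (Serpinc1), the main plasma inhibitor of thrombin and factor X, fell. Serpinc1 ran from 9.49 to 9.72 (median 9.64, mean 9.62 ± 0.08) in normal diet controls and from 9.45 to 9.69 (median 9.61, mean 9.61 ± 0.07) in normal diet E171 mice. Serpinc1 on the Western diet ran from 8.91 to 9.50 (median 9.14, mean 9.15 ± 0.19) in controls and from 8.94 to 9.32 (median 9.13, mean 9.14 ± 0.13) in E171 mice. The spread within the normal diet groups was the narrower, and 1 Western diet control reached into the normal diet range. Serpinc1 differed by -0.47 ± 0.07 in controls (adjusted p = 1.27e-06) and -0.46 ± 0.07 in E171 mice (adjusted p = 1.27e-06). Heparin cofactor II (Serpind1), a second thrombin inhibitor, moved likewise. Serpind1 ran from 6.81 to 7.09 (median 6.93, mean 6.95 ± 0.11) in normal diet controls and from 6.86 to 7.14 (median 7.01, mean 7.0 ± 0.09) in normal diet E171 mice. Serpind1 on the Western diet ran from 6.12 to 6.86 (median 6.44, mean 6.46 ± 0.26) in controls and from 6.01 to 6.59 (median 6.24, mean 6.28 ± 0.19) in E171 mice. Serpind1 differed by -0.49 ± 0.09 in controls (adjusted p = 4.31e-05) and -0.72 ± 0.09 in E171 mice (adjusted p = 9.08e-08), with no overlap between diets in E171 mice. With quantile normalization the values in controls shrank to -0.24 for Serpinc1 and -0.27 for Serpind1, both still called.

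Alpha-2 antiplasmin (Serpinf2), the fast inhibitor of plasmin, fell by more. Serpinf2 ran from 7.83 to 8.37 (median 8.08, mean 8.07 ± 0.16) in normal diet controls and from 7.91 to 8.19 (median 8.02, mean 8.04 ± 0.09) in normal diet E171 mice. Serpinf2 on the Western diet ran from 6.85 to 7.73 (median 7.14, mean 7.23 ± 0.33) in controls and from 6.77 to 7.39 (median 7.0, mean 7.06 ± 0.21) in E171 mice. The diets did not overlap in controls or in E171 mice. Serpinf2 differed by -0.85 ± 0.11 in controls (adjusted p = 2.27e-07) and -0.97 ± 0.11 in E171 mice (adjusted p = 1.48e-08). Serpina10 inhibits factor X together with protein Z. Serpina10 ran from 2.41 to 3.81 (median 2.74, mean 2.84 ± 0.41) in normal diet controls and from 2.49 to 3.26 (median 2.70, mean 2.76 ± 0.24) in normal diet E171 mice. Serpina10 on the Western diet ran from 2.01 to 2.71 (median 2.45, mean 2.40 ± 0.26) in controls and from 1.33 to 2.35 (median 2.17, mean 2.02 ± 0.38) in E171 mice. Serpina10 differed by -0.44 ± 0.16 in controls (adjusted p = 0.026) and -0.75 ± 0.16 in E171 mice (adjusted p = 0.000288), with no overlap in E171 mice, and in the deposited table the value in controls was -0.36 and not called (adjusted p = 0.0705). Serpine2, protease nexin 1, is a cell-bound inhibitor of thrombin and plasminogen activators. Serpine2 ran from 2.86 to 3.49 (median 3.34, mean 3.24 ± 0.25) in normal diet controls and from 1.72 to 3.68 (median 3.16, mean 3.05 ± 0.59) in normal diet E171 mice. Serpine2 on the Western diet ran from 1.64 to 3.44 (median 2.91, mean 2.74 ± 0.66) in controls and from 1.89 to 3.46 (median 2.51, mean 2.62 ± 0.49) in E171 mice. Serpine2 overlapped widely and was not called, at -0.49 ± 0.25 in controls (adjusted p = 0.106) and -0.44 ± 0.25 in E171 mice (adjusted p = 0.142). Without normal diet E171 replicate 6, whose value was the lowest of its group, the E171 difference was -0.63 (adjusted p = 0.0222). A dimmer Serpine2 probe differed by -1.05 ± 0.43 and -1.06 ± 0.43, called in both (adjusted p = 0.0467 and 0.0402, with every kept probe in 1 fit).

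Target proteases and cofactors were mostly lower. Of 29 tested genes on a list of them, 7 rose and 16 fell in controls, with a median of -0.30, where 18.5% of all genes rose and 28.7% fell. In E171 mice 8 rose and 17 fell, with a median of -0.28, where 22.2% of all genes rose and 31.0% fell. The share that rose was near that of all genes in both. The plasminogen activators Plat (2.64 in controls and 2.73 in E171 mice) and Plau (1.60 and 1.57) rose, as did the receptor Plaur (1.76 and 1.91). Plasminogen (Plg), on which they act, fell by 0.84 and 1.0. Prothrombin (F2) fell by 0.44 and 0.39, F10 by 0.72 and 0.73, F7 by 1.14 and 1.23, and the Serpina10 cofactor Proz by 0.55 and 0.47. The elastase gene Elane, the classical target of antitrypsin, differed by -0.01 and 0.06 and was not called.

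Of 8 receptors that clear serpins or their complexes or remove plasma glycoproteins, 1 rose and 6 fell in controls, where 18.5% of all genes rose and 28.7% fell, and 2 rose and 5 fell in E171 mice, where 22.2% rose and 31.0% fell. Lrp1, the receptor of most serpin complexes in liver, fell by 0.20 and 0.29. Vldlr rose by 1.56 and 1.93.

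The hormone carriers went in opposite directions in controls, while with E171 the rise of Serpina7 did not hold under all settings. Serpina6 is corticosteroid-binding globulin and Serpina7 is thyroxine-binding globulin. Serpina6 ran from 5.85 to 6.37 (median 6.06, mean 6.09 ± 0.17) in normal diet controls and from 6.19 to 6.76 (median 6.36, mean 6.42 ± 0.17) in normal diet E171 mice. Serpina6 on the Western diet ran from 5.41 to 6.09 (median 5.83, mean 5.78 ± 0.28) in controls and from 5.61 to 6.06 (median 5.86, mean 5.85 ± 0.16) in E171 mice. The E171 groups did not overlap. Serpina6 differed by -0.32 ± 0.10 in controls (adjusted p = 0.0114) and -0.57 ± 0.10 in E171 mice (adjusted p = 2.8e-05), and the call in controls was lost with quantile normalization (-0.13, adjusted p = 0.285) and in the deposited table (-0.09, adjusted p = 0.461). Serpina7 ran from 1.80 to 2.39 (median 2.03, mean 2.06 ± 0.20) in normal diet controls and from 1.90 to 2.72 (median 2.31, mean 2.33 ± 0.33) in normal diet E171 mice. Serpina7 on the Western diet ran from 2.06 to 3.09 (median 2.73, mean 2.67 ± 0.39) in controls and from 2.21 to 2.96 (median 2.74, mean 2.67 ± 0.23) in E171 mice. Both comparisons overlapped. Serpina7 differed by 0.61 ± 0.15 in controls (adjusted p = 0.00103) and 0.34 ± 0.15 in E171 mice (adjusted p = 0.0491). The call in E171 mice was lost under 4 of 10 settings, with adjusted p-values up to 0.0784, and 0.0696 with the replicate block.

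The complement serpin Serping1, inhibitor of C1r, C1s and kallikrein, fell. Serping1 ran from 7.17 to 7.72 (median 7.35, mean 7.38 ± 0.18) in normal diet controls and from 7.14 to 7.74 (median 7.30, mean 7.33 ± 0.19) in normal diet E171 mice. Serping1 on the Western diet ran from 6.49 to 7.25 (median 6.80, mean 6.86 ± 0.26) in controls and from 6.47 to 7.2 (median 6.80, mean 6.79 ± 0.24) in E171 mice. The ranges of the diets touched, with Western diet medians below every normal diet mouse. Serping1 differed by -0.52 ± 0.11 in controls (adjusted p = 0.000285) and -0.55 ± 0.11 in E171 mice (adjusted p = 0.000119), and with quantile normalization by -0.28 and -0.33, both called. Its target genes C1ra (-0.86 in controls and -0.75 in E171 mice), C1s1 (-0.30 and -0.28) and Klkb1 (-0.90 and -1.01) also fell.

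The other clade A genes held the largest falls. Serpina9, known as centerin from germinal centre B cells, gave the largest difference in E171 mice. Serpina9 ran from -2.75 to 0.32 (median -0.16, mean -0.50 ± 1.03) in normal diet controls and from -0.73 to 1.09 (median -0.03, mean 0.05 ± 0.67) in normal diet E171 mice. Serpina9 on the Western diet ran from -4.43 to -0.44 (median -3.27, mean -2.85 ± 1.53) in controls and from -4.76 to -2.58 (median -3.36, mean -3.45 ± 0.84) in E171 mice. Most Western diet mice lay far below the normal diet mice, and in E171 mice the groups did not overlap. Serpina9 differed by -2.35 ± 0.51 in controls (adjusted p = 0.000397) and -3.5 ± 0.51 in E171 mice (adjusted p = 1.51e-06), and after normexp background correction by -1.44 and -2.12. Serpina4-ps1 is named as a pseudogene of the kallistatin gene. Serpina4-ps1 ran from 0.06 to 4.38 (median 2.58, mean 2.5 ± 1.66) in normal diet controls and from 0.23 to 4.27 (median 2.58, mean 2.45 ± 1.44) in normal diet E171 mice. Serpina4-ps1 on the Western diet ran from -2.11 to 1.91 (median -0.83, mean -0.31 ± 1.62) in controls and from -2.68 to 1.51 (median -1.08, mean -0.89 ± 1.46) in E171 mice. Mice of every group were spread over several log2 units, the diets overlapped, and the difference was -2.81 ± 0.74 in controls (adjusted p = 0.00254) and -3.34 ± 0.74 in E171 mice (adjusted p = 0.000392). Its signal was well above background on all 32 arrays.

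Serpina11 ran from 5.99 to 6.66 (median 6.25, mean 6.27 ± 0.22) in normal diet controls and from 6.16 to 6.66 (median 6.32, mean 6.33 ± 0.16) in normal diet E171 mice. Serpina11 on the Western diet ran from 4.87 to 5.80 (median 5.04, mean 5.19 ± 0.35) in controls and from 4.87 to 5.55 (median 5.14, mean 5.21 ± 0.23) in E171 mice. For Serpina11 no mouse of 1 diet lay in the range of the other, in controls or with E171, and the difference was -1.08 ± 0.12 in controls (adjusted p = 3.56e-08) and -1.12 ± 0.12 in E171 mice (adjusted p = 1.3e-08). Serpina12 is vaspin, an adipokine that inhibits kallikrein 7. Serpina12 ran from -0.90 to 0.57 (median -0.02, mean -0.06 ± 0.43) in normal diet controls and from -0.53 to 0.52 (median -0.24, mean -0.09 ± 0.39) in normal diet E171 mice. Serpina12 on the Western diet ran from -2.37 to -0.42 (median -0.93, mean -1.11 ± 0.69) in controls and from -1.02 to -0.39 (median -0.65, mean -0.68 ± 0.20) in E171 mice. Serpina12 overlapped between diets and differed by -1.05 ± 0.22 in controls (adjusted p = 0.000282) and -0.58 ± 0.22 in E171 mice (adjusted p = 0.0275), and without Western diet E171 replicate 8 the E171 value was -0.54 (adjusted p = 0.0508). Serpina1f, a further copy in the antitrypsin group, differed by -0.48 ± 0.15 in controls (adjusted p = 0.0105) and -0.45 ± 0.15 in E171 mice (adjusted p = 0.0141), and after normexp by -0.26 and -0.22, both called.

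Of the serpins that do not inhibit proteases, Serpinh1 rose and Serpinf1 fell. Serpinh1 is HSP47, the chaperone of collagen in the endoplasmic reticulum. Serpinh1 ran from 1.30 to 2.35 (median 1.87, mean 1.85 ± 0.42) in normal diet controls and from 1.58 to 2.27 (median 1.76, mean 1.86 ± 0.26) in normal diet E171 mice. Serpinh1 on the Western diet ran from 2.59 to 3.43 (median 2.74, mean 2.85 ± 0.30) in controls and from 2.10 to 2.83 (median 2.63, mean 2.59 ± 0.24) in E171 mice. In controls every Western diet mouse lay above every normal diet mouse, and in E171 mice 1 Western diet mouse lay within the normal diet range. Serpinh1 differed by 1.0 ± 0.15 in controls (adjusted p = 3.43e-06) and 0.73 ± 0.15 in E171 mice (adjusted p = 0.000186). A second Serpinh1 probe, on the opposite strand of chromosome 7, was well above background on 5 of 8 Western diet control arrays and on 0 of 8 in each other group.

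Collagen genes and enzymes that work with Serpinh1 were higher as a list: 14 of 16 rose and 0 fell in controls (18.5% and 28.7% of all genes), and 13 rose and 0 fell in E171 mice (22.2% and 31.0%), with a median of 1.26 in both. Col1a1 rose by 3.02 and 3.36, Col3a1 by 2.23 and 2.38 and the collagen prolyl isomerase Fkbp10 by 1.39 and 1.51. P4hb, the protein disulfide isomerase, differed by 0.07 and 0.06 and was not called. Serpinf1, pigment epithelium-derived factor, went the other way. Serpinf1 ran from 7.89 to 8.20 (median 8.02, mean 8.03 ± 0.10) in normal diet controls and from 7.92 to 8.22 (median 8.07, mean 8.06 ± 0.09) in normal diet E171 mice. Serpinf1 on the Western diet ran from 7.31 to 7.95 (median 7.49, mean 7.54 ± 0.22) in controls and from 7.17 to 7.78 (median 7.46, mean 7.50 ± 0.19) in E171 mice. The E171 groups did not overlap. Serpinf1 differed by -0.49 ± 0.08 in controls (adjusted p = 1.4e-05) and -0.56 ± 0.08 in E171 mice (adjusted p = 1.6e-06), and its other 2 probes fell in both comparisons too. With quantile normalization the values were -0.27 and -0.37, both called.

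Intracellular clade B serpins guard cells against their own granule and lysosomal proteases. Of 10 tested, 3 rose and 1 fell in controls, and 3 rose and 2 fell in E171 mice. That is 4 and 5 of 10 called, near the 47.3% and 53.2% of all genes. The fall in controls was that of Serpinb8, whose other kept probe rose, as given below. Serpinb6b, a copy of the cathepsin G inhibitor Serpinb6a, rose most. Serpinb6b ran from -0.37 to 0.66 (median -0.11, mean -0.01 ± 0.34) in normal diet controls and from -0.56 to 0.10 (median -0.17, mean -0.20 ± 0.22) in normal diet E171 mice. Serpinb6b on the Western diet ran from 0.48 to 1.69 (median 1.06, mean 1.06 ± 0.35) in controls and from 0.00 to 1.11 (median 0.81, mean 0.70 ± 0.36) in E171 mice. The groups overlapped at single mice, and Serpinb6b differed by 1.08 ± 0.16 in controls (adjusted p = 1.85e-06) and 0.91 ± 0.16 in E171 mice (adjusted p = 1.89e-05). Serpinb6a ran from 2.39 to 2.96 (median 2.56, mean 2.62 ± 0.21) in normal diet controls and from 2.43 to 2.83 (median 2.63, mean 2.62 ± 0.13) in normal diet E171 mice. Serpinb6a on the Western diet ran from 2.41 to 3.71 (median 3.34, mean 3.22 ± 0.47) in controls and from 2.65 to 3.62 (median 3.15, mean 3.15 ± 0.38) in E171 mice. Serpinb6a overlapped between diets and was spread more widely on the Western diet. It differed by 0.60 ± 0.16 in controls (adjusted p = 0.00246) and 0.53 ± 0.16 in E171 mice (adjusted p = 0.00586), and Serpinb6c by 0.65 ± 0.18 in controls (adjusted p = 0.00331) and 0.49 ± 0.18 in E171 mice (adjusted p = 0.0202). Their probes share a run of 26 bases, so the split between these 2 copies is uncertain. A dim Serpinb6a probe at chr13:34078371-34078430 lies far from its other 2 kept probes and gave -0.38 ± 0.16 in controls (adjusted p = 0.0497, with every kept probe in 1 fit) and 0.13 ± 0.16 in E171 mice.

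Serpinb8, an inhibitor of furin, had 2 kept probes that disagreed. Serpinb8 ran from 5.08 to 6.11 (median 5.27, mean 5.48 ± 0.44) in normal diet controls and from 4.93 to 5.47 (median 5.24, mean 5.22 ± 0.19) in normal diet E171 mice. Serpinb8 on the Western diet ran from 3.94 to 5.74 (median 4.64, mean 4.71 ± 0.65) in controls and from 3.91 to 4.76 (median 4.24, mean 4.31 ± 0.34) in E171 mice. The E171 groups did not overlap. This brighter probe, at chr1:109504865-109504924, was lower on the Western diet, by -0.77 ± 0.21 in controls (adjusted p = 0.00347) and -0.91 ± 0.21 in E171 mice (adjusted p = 0.000622). The dimmer probe, whose ends lie at 109499452 and 109501197, was higher by 1.12 ± 0.22 in controls (adjusted p = 0.00016) and by 1.05 ± 0.22 in E171 mice (adjusted p = 0.000281). No direction for the gene follows. Serpinb9f fell in E171 mice alone, at -0.60 ± 0.25 (adjusted p = 0.0431), against -0.22 ± 0.25 in controls, and the difference between these was not called in the interaction test. The call was lost in the deposited table (-0.36, adjusted p = 0.0872), with no filter (adjusted p = 0.0677) and without normal diet E171 replicate 6 (-0.55, adjusted p = 0.0783). Serpinb1a, Serpinb1c, Serpinb3c, Serpinb6d and Serpinb9, the granzyme B inhibitor, were not called in either. Serpinb9, at 0.32 in E171 mice (adjusted p = 0.059), was called there with the slide block (adjusted p = 0.0424), after normexp (adjusted p = 0.0499) and without Western diet E171 replicate 8 (adjusted p = 0.0275). After normexp Serpinb1c (-0.25, adjusted p = 0.0236) and Serpinb3c (-0.18, adjusted p = 0.0228) were called lower in controls. Serpinb1c, Serpinb3c and Serpinb6d were above background on some arrays only.

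Serpini1, neuroserpin, is the tested gene of clade I. Serpini1 ran from -6.33 to -4.74 (median -5.12, mean -5.31 ± 0.59) in normal diet controls and from -5.97 to -4.60 (median -5.34, mean -5.27 ± 0.43) in normal diet E171 mice. Serpini1 on the Western diet ran from -4.96 to -2.90 (median -3.87, mean -3.96 ± 0.66) in controls and from -5.38 to -2.92 (median -4.48, mean -4.45 ± 0.87) in E171 mice. Its probe was well above background on 3 and 2 of 8 arrays in the normal diet controls and E171 mice, and on 8 and 5 on the Western diet, so the values near the floor are poorly measured. The gene passed the filter through the Western diet controls alone, so its rise in controls was favoured in advance. Serpini1 differed by 1.36 ± 0.32 in controls (adjusted p = 0.000814) and 0.82 ± 0.32 in E171 mice (adjusted p = 0.0305), and with normexp background correction by 0.10 and 0.04, not called.

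**Figure D4:**
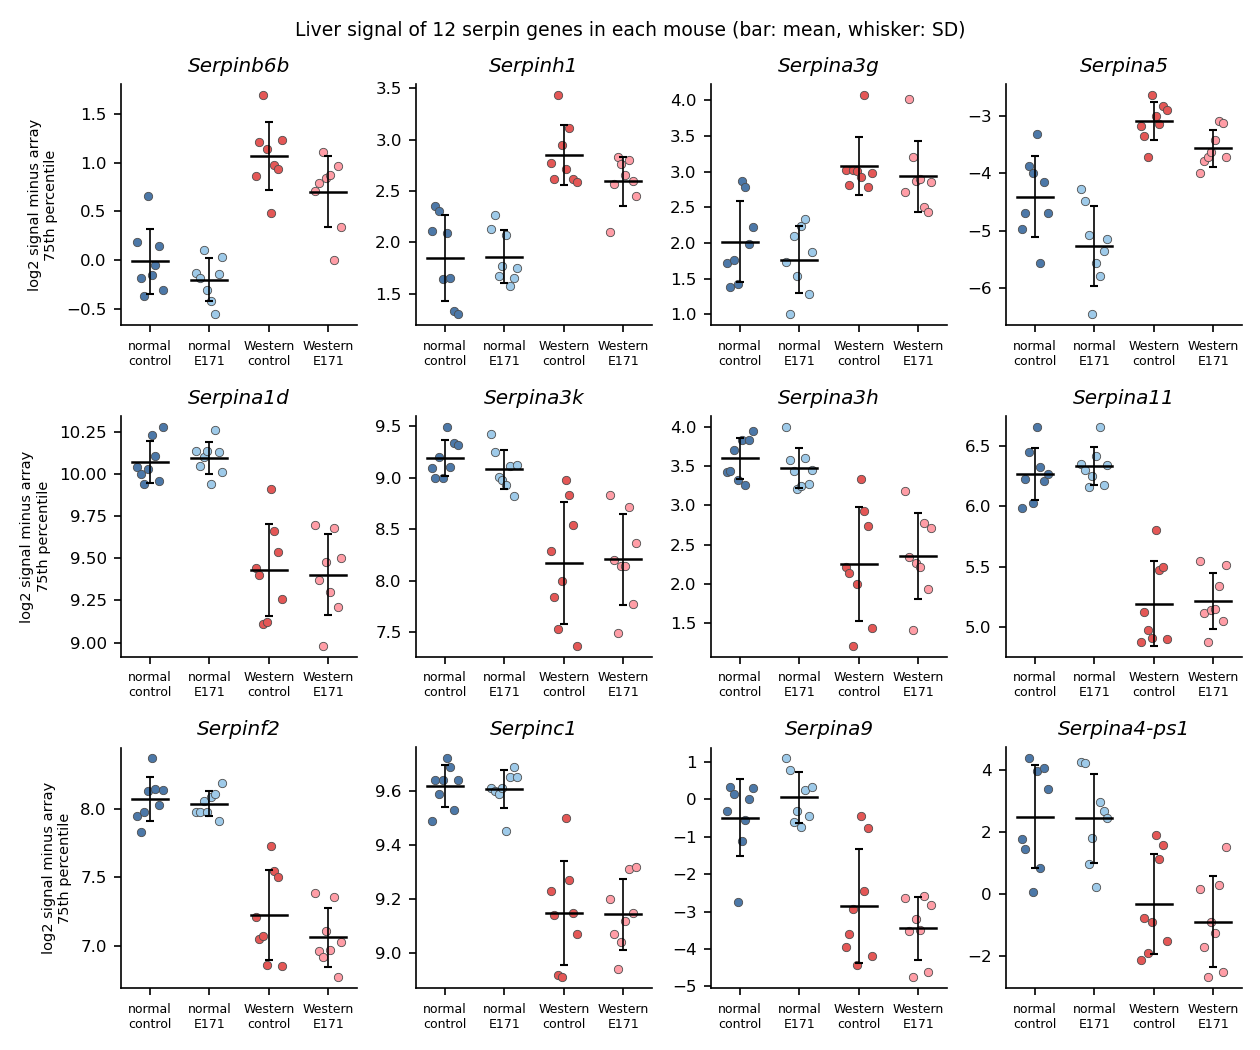
Signal of 12 serpin genes (y axes, log2 minus the 75th percentile of the array) in each mouse of the 4 groups, with the mean (bar) and SD (whisker) of 8 mice. Serpina1d, Serpinf2 and Serpina11 show no overlap between diets with or without E171, and Serpina4-ps1 is spread over several units in every group.

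The 21 genes that were not tested were mostly of clade B (17 genes). For 15 of the 21, no probe was well above background on any of the 32 arrays, among them Serpinb2, Serpinb3a and Serpini2. Of the other 6, 5 reached it on 1 array each and Serpinb10 on 3 of 8 Western diet control arrays, 2 of 8 Western diet E171 arrays and 0 of 16 normal diet arrays. Below background is a bound and not an absence.

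E171 gave no called difference in any serpin gene. On the normal diet limma called 0 of 43 serpins and 0.0% of all genes, and at an unadjusted p under 0.05 it held 2 serpins and 958 of all genes. On the Western diet it called 0 of 43 serpins and 0.38% of all genes, and at an unadjusted p under 0.05 3 serpins and 2825 of all genes. The serpin median was -0.03 on the normal diet and -0.07 on the Western diet. Serpina5 had the largest difference on the normal diet, -0.86 ± 0.26 (unadjusted p = 0.00275, adjusted p = 0.925), at the dim probe described above. Serpina6 was next in p, at 0.32 ± 0.10 (unadjusted p = 0.0032, adjusted p = 0.925). On the Western diet the smallest p belonged to Serpina10, at -0.39 ± 0.16 (unadjusted p = 0.0223, adjusted p = 0.317), followed by Serpinb6b at -0.36 (adjusted p = 0.351) and Serpina3b at -0.12 (adjusted p = 0.383). These tests do not show that E171 leaves the genes as they were. The standard errors, from 0.06 for Serpina3b to 0.74 for Serpina4-ps1, set what could be seen.

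**Figure D5:**
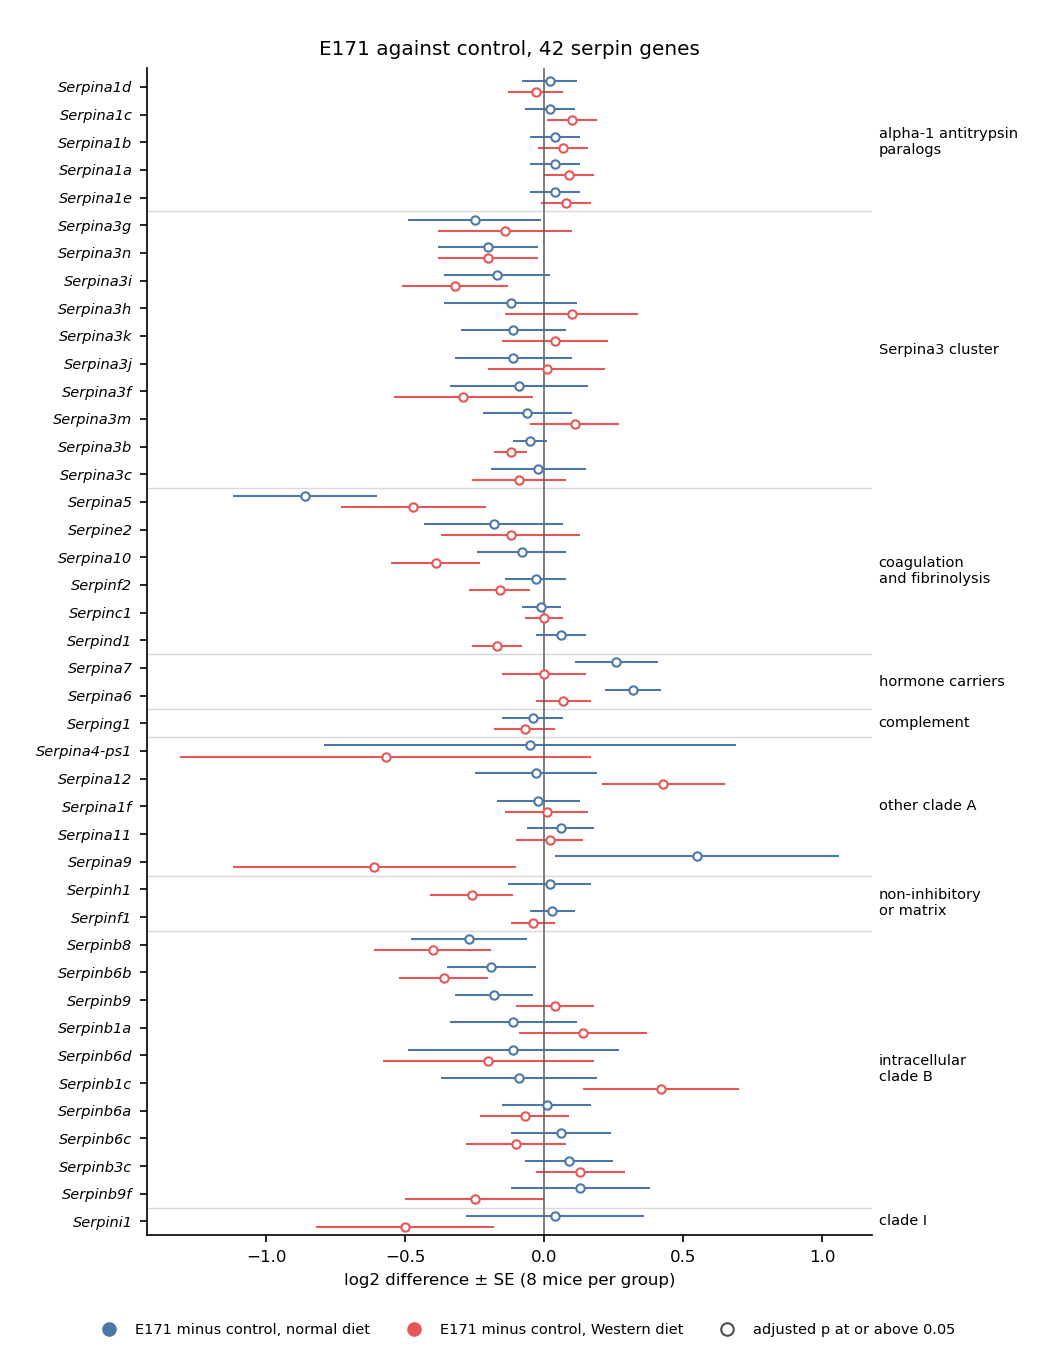
Log2 difference between E171 and control mice (x axis, ± SE, 8 mice per group) for 42 of the tested serpin genes on the normal diet (blue) and the Western diet (red), grouped by role. All points are open, as none had an adjusted p under 0.05, and they run from -0.86 to 0.55 on the normal diet and from -0.61 to 0.43 on the Western diet.

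The interaction asks whether the diet difference changed with E171, since the diet was tested as something that could worsen the effects of the additive. It was called for 0 of 43 serpins and for 0.0% of all genes, and at an unadjusted p under 0.05 for 0 serpins and 1222 of all genes. Serpind1 had the smallest unadjusted p, 0.0756 (adjusted p = 0.996), and Serpina9 the largest difference, -1.15 (adjusted p = 0.999). The diet differences of Serpina9 and others, though unequal in size between controls and E171 mice, were not shown to differ.

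Markers of liver cell types moved with diet too, where 18.5% of all genes rose and 28.7% fell in controls and 22.2% and 31.0% in E171 mice. All 8 hepatocyte markers fell in both comparisons, with a median of -0.44 in controls and -0.53 in E171 mice, and their mean level ran from 8.52 to 8.78 in normal diet controls, 8.57 to 8.74 in normal diet E171 mice, 7.83 to 8.56 in Western diet controls and 7.84 to 8.23 in Western diet E171 mice. Alb fell by 0.28 and 0.28 and Fgb by 0.77 and 0.97. The part of this fall in those of the secreted serpins was not tested.

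Lipid-associated macrophage markers rose for 5 of 6 genes in both, with list means of -1.91 to -1.02 and -2.02 to -1.39 in the normal diet controls and E171 mice, and of 0.39 to 2.93 and 1.24 to 2.76 on the Western diet. Gpnmb, of that list, passed the background flag on all Western diet arrays and on none of the normal diet. Stellate cell markers rose for 4 of 6, with list means of 0.80 to 1.63 and 0.75 to 1.45 on the normal diet and of 1.55 to 2.59 and 2.13 to 2.69 on the Western diet. Kupffer cell markers rose for 5 of 8 in both, while Clec4f, a defining one, differed by 0.10 and 0.11 and was not called. Neutrophil markers rose for 2 of 7 in controls and 5 of 7 in E171 mice, where Ly6g fell by 0.33 (adjusted p = 0.0244). Cholangiocyte markers rose for 3 of 5 and 4 of 5, with medians of 0.92 and 1.05, and platelet markers for 2 of 4 and 3 of 4. T and NK cell markers rose for 1 of 6 and 3 of 6, and 1 fell in each. Endothelial markers rose for 2 of 5 and fell for 1 in each, and B cell markers rose for 1 of 4 in each. The part of these cells in the rises of Serpinh1, Serpina3g and Serpinb6b was not tested.

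Regulators known to act on serpin genes were tested as a list of 16, of which 3 rose and 8 fell in controls and 4 rose and 9 fell in E171 mice. The shares of all genes were 18.5% and 28.7% in controls and 22.2% and 31.0% in E171 mice, so the share of the list that rose was near the background. Hnf4a fell by 0.49 and 0.60, Stat3 by 0.44 and 0.36, Ghr, the growth hormone receptor, by 0.51 and 0.42, and Hsf1, a heat shock factor that acts on Serpinh1, by 0.27 and 0.37. Tgfb1 rose by 0.57 and 0.64, its receptor gene Tgfbr2 by 0.97 and 1.37, and Osmr, the oncostatin M receptor, by 0.97 and 0.83.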

How the data were processed

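Whole liver RNA of 32 mice was hybridised to 1-colour arrays and scanned with Agilent Feature Extraction 10.10.1.1, per the submitters' processing notes. The deposited scanner files hold background-subtracted spot intensities, per the file headers, and a 0 or 1 flag per spot for signal well above background. For 36695 probes the authors also deposited log2 values. How these were normalized is not given in the sources used here. They followed the scanner intensities (lowest correlation 0.989) and served as an alternative.

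Here log2 intensity minus the 75th percentile of each array was fitted with limma 3.58.1 (R 4.3.3) on all genes, with 1 mean per group and 1 shared spread. Control spots and outlier flags were left out, 78 values that this left missing (0 of serpin probes) were set to the group mean, spots of a probe were averaged, and the brightest kept probe stood for a gene. Gene names came from RefSeq accessions (32994 probes), current symbols (10224), synonyms (520) or the file itself (2110). Two-sided p-values were adjusted by Benjamini-Hochberg over 23656 genes. The fit was tested on simulated data.

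Values were to be given in full for 31 genes, of which 1 is not reported here: those called with a difference of at least 1, those on a list of known roles, and those whose own probes opposed each other when called. The serpin genes and all lists were chosen with earlier results of these data known, and the promoter motif after the sequences were seen. Alternatives were quantile normalization, normexp background correction (offset 50), the deposited table, no filter, a stricter filter, slide and replicate number as blocks, and the dimmest kept probe. Every kept probe was also fitted on its own, for the counts of called serpins and for genes with several probes. Leaving out Western diet E171 replicate 8 and normal diet E171 replicate 6 was added after the data were seen. Protein sequences were not used here.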

Additional observations from a re-analysis of the deposited data

Results flagged for a closer look

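Of 124 groups of 8 mice (31 genes in 4 groups), 9 had 1 mouse set apart from the rest beyond the critical value of Dixon's test, where chance alone gives about 1 in 20.

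Normal diet E171 replicate 6 was behind 4 of the 9. It had the highest signal of its group for Serpina1a (11.07, next 10.72), Serpina1c (11.15, next 10.78) and Serpina1e (10.93, next 10.62) and the lowest for Serpine2 (1.72, next 2.95). The Serpina1a and Serpina1c probes differed at 1 of 51 aligned bases. The 75th percentile intensity of this array, which was subtracted from its signals on the log2 scale, was the lowest of the 32 (175.0, next 211.0), and its part in these values was not tested. Normal diet E171 replicate 5 was highest for Serpina3n (4.20, next 3.58) and lowest for Serpinc1 (9.45, next 9.59). Normal diet control replicate 5 was highest for Serpina10 (3.81, next 2.83) and normal diet control replicate 4 lowest for Serpina9 (-2.75, next -1.11). Western diet control replicate 6 was highest for Serpina3g (4.07, next 3.03).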

How the results depend on the processing

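Of 67 called values over both diet comparisons, 48 kept their direction and call under all 10 alternatives, among them those of Serpina1d, Serpina3g, Serpina11, Serpinf2 and Serpinh1. Only 12 of the 43 tested genes had several kept probes, and the genes just named were not among them. For genes with a single kept probe the dimmest kept probe was the same probe, so that alternative could not turn their direction. The number of serpins called higher ran from 9 to 12 in controls and from 8 to 11 in E171 mice over the settings, and the number called lower from 18 to 25 and from 20 to 26. These ranges include a fit of every kept probe, which gave the upper end of each. In that fit a gene whose probes disagree, such as Serpinb8, counts in both directions. The setting with no filter covered 64 serpin genes.

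Signs turned for 7 of them. With quantile normalization the controls gave 0.06 for Serpina1a, 0.01 for Serpina1c and 0.02 for Serpina1e, and E171 mice gave 0.02 for Serpina1c. In the deposited table the controls gave 0.01 for Serpina1a and 0.01 for Serpina1c. The dimmest kept probe gave -0.38 for Serpinb6a and 1.12 for Serpinb8 in controls, and 1.05 for Serpinb8 in E171 mice. The cause was not tested. Of 23608 genes of the deposited table, 5236 were higher and 4370 lower in controls.

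Mice of the same replicate number in different groups correlated at -0.298 to 0.571 in their deviations from the group means (median 0.068, 48 pairs). Mice of different numbers correlated at -0.53 to 0.509 (median -0.019, 336 pairs), so the median was slightly higher for the same number. The numbers were not taken as pairs because the labels state no pairing. With a replicate block 10 serpins were higher and 24 lower in controls, and 8 higher and 25 lower in E171 mice, where Serpina7 lost its call (adjusted p = 0.0696) and Serpina1a gained one (adjusted p = 0.0299). Signals near background limit Serpina5, Serpini1 and Serpinb6d most.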
